A study of Mus musculus with 30 samples.

Results

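The Hist1 cluster is the largest group of replication-dependent histone genes of the mouse. These genes encode the core histones H2A, H2B, H3 and H4 and the linker histone H1, which package newly made DNA, and most of them are transcribed in S phase and give mRNAs that end in a stem-loop in place of a poly(A) tail. Most are copied many times with nearly the same coding sequence, and many H2A and H2B genes share a divergent promoter. Germ cells also use testis variants such as H1f6 (H1t), a linker histone of spermatocytes, and H2bc1 and H2ac1 (TH2B and TH2A).

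Open chromatin of this cluster was examined by ATAC-seq, in which the transposase Tn5 cuts accessible DNA and pile-ups of reads are listed as peaks, here called regions. The cluster was taken as all regions on chromosome 13 with a midpoint from 21.6 to 24 Mb, in the coordinates of the deposited lists. It held 430 of 185395 regions in 4 lists. The window was chosen by measured values: 2 regions in it, with SG-A signal values of 15220 and 14128, were among the strongest of the SG-A list that were not listed in pacSC. What follows is therefore a description of the window, and no p-value was computed.

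The study took germ cells of 4 kinds from C57BL/6 testes. PriSG-A, the primitive type A spermatogonia, came from mice 6 days after birth and SG-A, the type A spermatogonia, from mice 8 days after birth, and both divide by mitosis. Pachytene spermatocytes (pacSC) are in meiotic prophase, round spermatids (rST) are haploid, and both came from adults. No genotype or treatment differed between the groups. ATAC-seq was made on 3 libraries each of PriSG-A and SG-A and 2 each of pacSC and rST, with 1 list a stage. Replicate error and read depth are unknown. The later stages differ from the earlier ones in age and number of libraries as well as stage, and these cannot be told apart. In a bulk sample, fewer open cells and less openness per cell cannot be told apart either. The whole PriSG-A list held 56792 regions, that of SG-A 88369, that of pacSC 33775 and that of rST 6459, so a region can be missing from a list because that list is short.

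In the RefSeq gene order of chromosome 13 (assembly GRCm38.p6), 56 genes carry a Hist1 name, 1 of them a lone pseudogene far from the rest. The first run, from H2bc13 to H2bc11, has 23 protein-coding histone genes: 1 of H1, 7 of H2A, 8 of H2B, 2 of H3 and 5 of H4. It also holds 31 tRNA genes and 3 other protein-coding genes, Zfp184, Pom121l2 and Prss16. The second run, from H4c8 to H1f1, has 29 protein-coding histone genes: 5 of H1, 5 of H2A, 6 of H2B, 7 of H3 and 6 of H4, with Hfe, a regulator of iron uptake, among them. Between the runs lie 147 genes, of which 75 are Vmn1r genes and pseudogenes (pheromone receptors of the vomeronasal organ) and 46 are tRNA genes. H2bc1 and H2ac1 follow the second run after 8 other genes, among them Trim38 and 4 Slc17a transporters. The deposited positions were taken to be of the mm9 assembly and not GRCm38, so no region was assigned to a gene. The name of the cluster rests on the coordinates of the window.

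The sequences below are those of the genes, not of the listed regions, whose bases were not used here. They show what kind of promoter the cluster is built from. Each is the 120 bases ending at the annotated gene start in RefSeq (GRCm38.p6), for the first gene of each histone class in the second run that has an entry, and for H1f6. Capitals mark the CCAAT box bound by NF-Y, the TATA box with letters TATAAA, the Oct1 octamer with letters ATTTGCAT and the H1 box with letters AAACACA, on either strand.
H1f3 (H1, + strand): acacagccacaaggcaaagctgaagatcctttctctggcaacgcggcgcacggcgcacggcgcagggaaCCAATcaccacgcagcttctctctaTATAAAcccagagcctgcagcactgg
H1f6 (H1t, + strand): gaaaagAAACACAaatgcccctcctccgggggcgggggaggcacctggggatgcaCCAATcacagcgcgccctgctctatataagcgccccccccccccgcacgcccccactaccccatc
H2ac10 (H2A, + strand): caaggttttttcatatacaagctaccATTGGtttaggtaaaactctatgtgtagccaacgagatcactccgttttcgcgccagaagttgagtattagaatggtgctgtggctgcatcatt
H2bc9 (H2B, − strand): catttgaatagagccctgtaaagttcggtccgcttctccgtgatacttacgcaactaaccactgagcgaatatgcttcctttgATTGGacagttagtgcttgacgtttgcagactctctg
H3c8 (H3, + strand): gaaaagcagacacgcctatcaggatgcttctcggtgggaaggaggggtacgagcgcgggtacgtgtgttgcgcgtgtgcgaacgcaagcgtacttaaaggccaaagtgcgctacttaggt
H4c8 (H4, + strand): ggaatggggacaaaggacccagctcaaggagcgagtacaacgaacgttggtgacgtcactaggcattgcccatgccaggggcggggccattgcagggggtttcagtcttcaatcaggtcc

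Promoters were found for 51 of the 56 genes, in 52 entries, and were searched over the 250 bases before the start. CCAAT was in 44 of 52 (84.6%), against 33.8% of 32851 promoters of all genes. It was in every H1, H2A, H2B and H3 entry and in 3 of 11 H4 entries. TATAAA was in 26 of 52 (50.0%, against 12.4% of all), and AAACACA in 5 of 6 H1 entries and 9 of 52 in all (17.3%, against 6.25%). The octamer was in 5 of 13 H2A and 6 of 15 H2B entries and in no H1, H3 or H4 entry (21.2% in all, against 1.60%). H2A and H2B entries of a divergent pair can overlap, so these counts are not independent. A match says only that the letters are present.

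Along the window the regions formed 2 dense blocks, from 21.8 to 22.2 Mb (sub-cluster 1) and from 23.5 to 23.9 Mb (sub-cluster 2), with a sparse spacer between them. The sub-clusters held 339 of the 430 regions, 159 in the first and 180 in the second. The spacer, from 22.2 to 23.5 Mb, held 83, the low flank 7 and the high flank 1. In SG-A the density was 213 regions per Mb in sub-cluster 1, 250 in sub-cluster 2 and 25.4 in the spacer, against 34.2 over the whole list. The median gap between neighbouring SG-A regions was 866 bp in the sub-clusters and 6180 bp over the whole list.

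**Figure D1:**
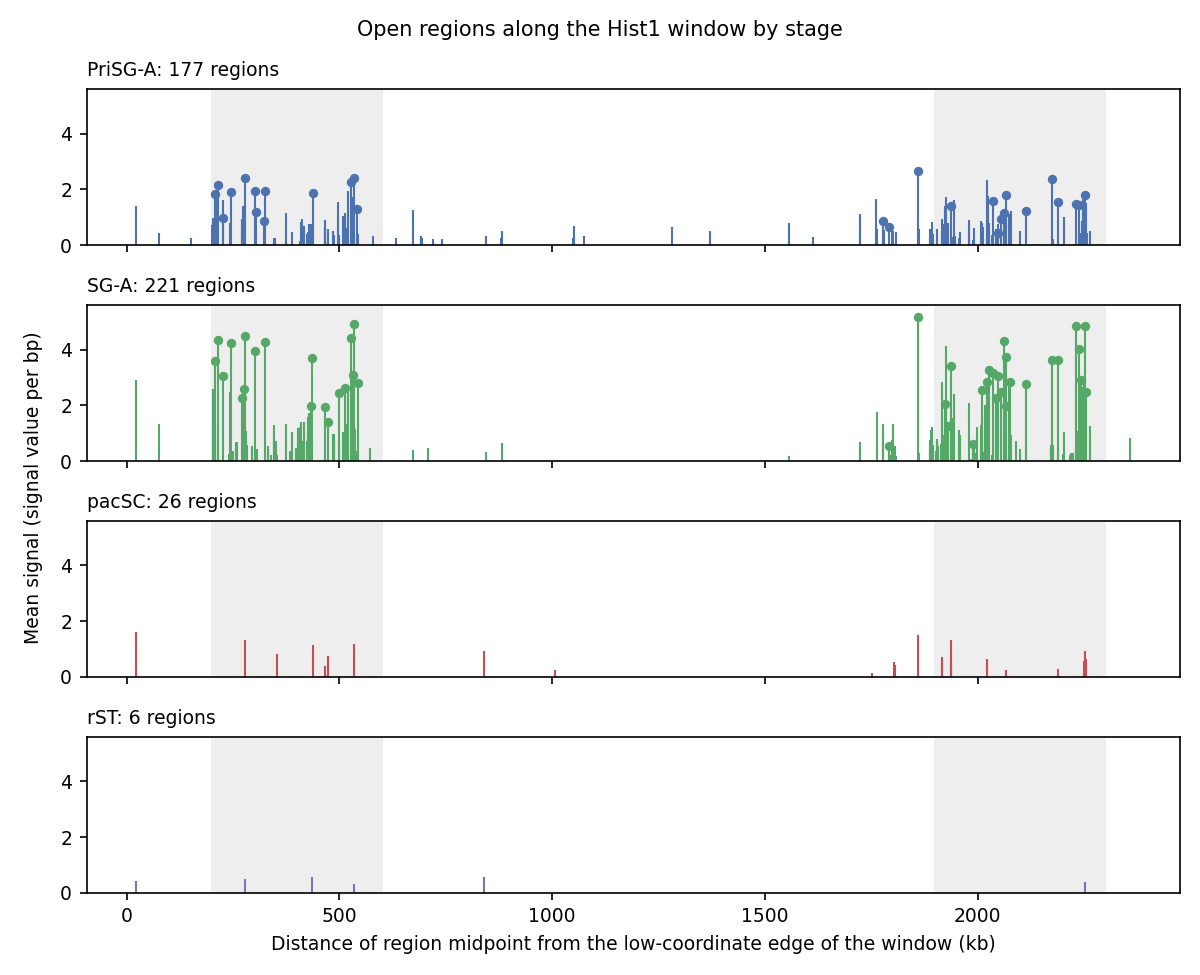
Open regions in the Hist1 window at each stage. The x axis is the distance of a region's midpoint from the low-coordinate edge of the window in kb, the y axis is the signal value per bp, dots mark regions of 1000 bp or more, and grey marks the 2 sub-clusters. From the earliest to the latest stage the panels hold 177, 221, 26 and 6 regions, and no region of pacSC or rST reached 1000 bp.

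The sub-clusters had many regions in both spermatogonial lists and few in the later ones. PriSG-A had 131 regions there, SG-A 185, pacSC 19 and rST 4. With each list cut to the length of the shortest by signal value, the counts were 24, 28, 3 and 4, so the order of pacSC and rST turned. By sub-cluster, PriSG-A had 64 in the first and 67 in the second, SG-A had 85 and 100, pacSC had 7 and 12, and rST had 3 and 1. PriSG-A regions covered 8.46% of the length of the sub-clusters, SG-A regions 14.6%, pacSC regions 0.822% and rST regions 0.123%. Over the whole listed genome the covered shares were 0.870%, 1.49%, 0.470% and 0.0760%, so the sub-clusters lay well above the genome in spermatogonia and much nearer to it in pacSC and rST.

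The share of signal in the sub-clusters was likewise higher in the spermatogonial lists than in the later ones. The deposited signal value of a region is an area that grows with its width, and the sources used here do not say how it was scaled between lists. The share of a list's summed signal value that fell in the sub-clusters does not depend on a constant factor between lists. Other differences in scaling, read depth or cutoff can change it and were not tested. PriSG-A had 0.310% of its signal there, SG-A 0.376%, pacSC 0.0337% and rST 0.0173%. In the same order of stages, the share of the list's regions that fell there was 0.231%, 0.209%, 0.0563% and 0.0619%. In the spermatogonial lists the sub-clusters thus had a larger share of signal than of regions, and in pacSC and rST a smaller one.

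**Figure D2:**
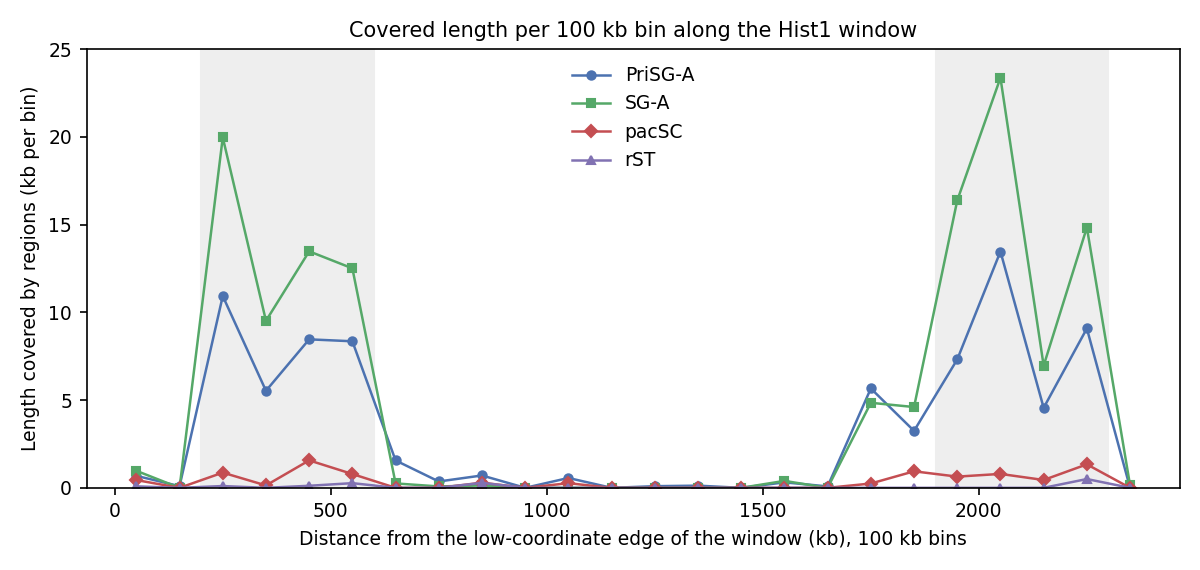
Length covered by regions in each 100 kb bin of the window. The x axis is the distance from the low-coordinate edge in kb, the y axis is covered length in kb per bin, lines join the bins of 1 stage, and grey marks the sub-clusters. SG-A lies above PriSG-A in each of the 8 sub-cluster bins, with its highest bin at 23372 bp, while pacSC stays at or below 1565 bp.

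Within the sub-clusters coverage was uneven. Of the 8 bins of 100 kb, the fullest in SG-A was 23600001 to 23700000, with 30 regions, 11 of them of 1000 bp or more, and 23372 bp covered. It ranked 29 by covered length among 21909 bins with a region in any list. The next, at 21800001 to 21900000, had 22 regions and 19972 bp and ranked 40. The emptiest, 23700001 to 23800000, had 10 regions and 6963 bp. In PriSG-A the same bins had 13471, 10932 and 4560 bp, in the same order.

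Sub-cluster regions were wider than those of the whole list in spermatogonia, and in pacSC and rST their median width was close to that of the whole list. The median PriSG-A region was 361 bp wide, that of SG-A 265 bp, that of pacSC 185 bp and that of rST 192 bp, against 210, 182, 190 and 188 bp over the whole lists. The widest spanned 2391, 3586, 867 and 501 bp. Regions of 1000 bp or more, called wide here, numbered 25 in PriSG-A (19.1%, against 10.4% of the whole list) and 43 in SG-A (23.2%, against 14.1%). In pacSC and rST none of the 19 and 4 regions was wide, against 7.44% and 3.05% of the whole lists.

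Signal per bp (the signal value divided by the width) had a median of 0.770 in PriSG-A, from 0.123 to 2.42, and of 0.823 in SG-A, from 0.0911 to 4.92. In pacSC the median was 0.635, from 0.259 to 1.33, and in rST 0.433, from 0.325 to 0.551. The ranges overlap, while the highest values were spermatogonial. Over the whole lists the medians were 0.506, 0.604, 0.579 and 0.457. The highest −log10 q in the sub-clusters was 12.5, in SG-A, and the pacSC and rST maxima were 4.49 and 2.61.

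Joined over the 4 lists, the sub-clusters held 182 separate regions. Of these, 89 (48.9%) were listed in SG-A alone, with a median width of 123 bp. PriSG-A and SG-A together, with no later stage, held 78 (42.9%, median width 785 bp), both and pacSC 8, all 4 stages 4, SG-A and pacSC 1, and PriSG-A alone 2. None was listed first in pacSC or rST. Over the whole series SG-A alone held 44.5% of the joined regions (median width 104 bp), near the share here. PriSG-A and SG-A together held 16.7%, both with pacSC 7.85% and all 4 stages 2.82%. PriSG-A alone held 13.01% over the whole series, against 1.099% in the sub-clusters. A further 11.7% were in pacSC alone, 0.897% in pacSC and rST alone and 0.310% in rST alone.

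From PriSG-A to SG-A nearly every region of the sub-clusters was listed again: 129 of 131, or 98.5% (95% Wilson interval 94.6 to 99.6), against 71.9% of the whole list. With a reciprocal overlap of 50% required, the share was 36.6%, against 32.2% of the whole list. At an overlap of 1 bp, even the narrow ones, under 200 bp, were listed again in 45 of 46 cases, against 54.7% of such regions in the whole list. The 2 exceptions, both in sub-cluster 1, were weak, at 21974185 to 21974400 (signal per bp 0.123) and at 22180316 to 22180440 (0.320). SG-A regions filled 14.6% of the sub-clusters, and the part of that density in these overlaps was not tested. Intervals here and below cover counting error only and treat neighbouring regions as independent.

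Conversely, 95 of 185 SG-A regions, or 51.4% (44.2 to 58.5), were also in PriSG-A, against 38.5% of the whole list. The 90 newly listed ones had medians of 116 bp in width and 0.512 in signal per bp, against 899 bp and 1.97 for those in both lists. The whole SG-A list had the same contrast, with 105 bp and 0.478 against 647 bp and 1.26. All 43 wide SG-A regions were already listed in PriSG-A, near the 98.2% of wide regions in the whole SG-A list. The SG-A regions of highest signal value that no other list held lay in sub-cluster 2, at 23598246 to 23599229 (984 bp, signal per bp 1.23) and 23516384 to 23517009 (626 bp, 1.91); these were picked after their values were seen.

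Regions of both spermatogonial lists were mostly higher per bp and wider in SG-A, in the sub-clusters as over the whole series. After joining, 44 regions had 1000 bp or more of SG-A length, a choice that by itself favours SG-A. All 44 were higher per bp in SG-A, by a median of 2.43 fold (log2 range 0.62 to 2.71), and all 44 were wider, by a median of 1.46 fold. The whole series had nearly the same values for such regions, with 98.5% of 12349 higher and a median of 2.39 fold, and 94.5% wider with a median of 1.45 fold. The rise per bp was thus close to that of wide regions at large. Of the 44, 21 (47.7%) joined several PriSG-A regions, up to 4, against 38.6% of the whole series. The region at 21870646 to 21872622, picked after its values were seen, was 4 separate regions in PriSG-A (1268 bp in all, signal per bp 0.851) and 1 of 1977 bp in SG-A (2.24). Over all widths 83 of 90 regions of both lists were higher per bp in SG-A, with a median of 2.28 fold, against 84.5% of 32136 and 2.04 fold over the whole series. By length, 79 of 90 were wider in SG-A, against 76.8% of the whole series. The 7 that were lower had at most 424 bp of SG-A length. In the spacer 9 of 18 were higher and the median fold was 0.973.

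**Figure D3:**
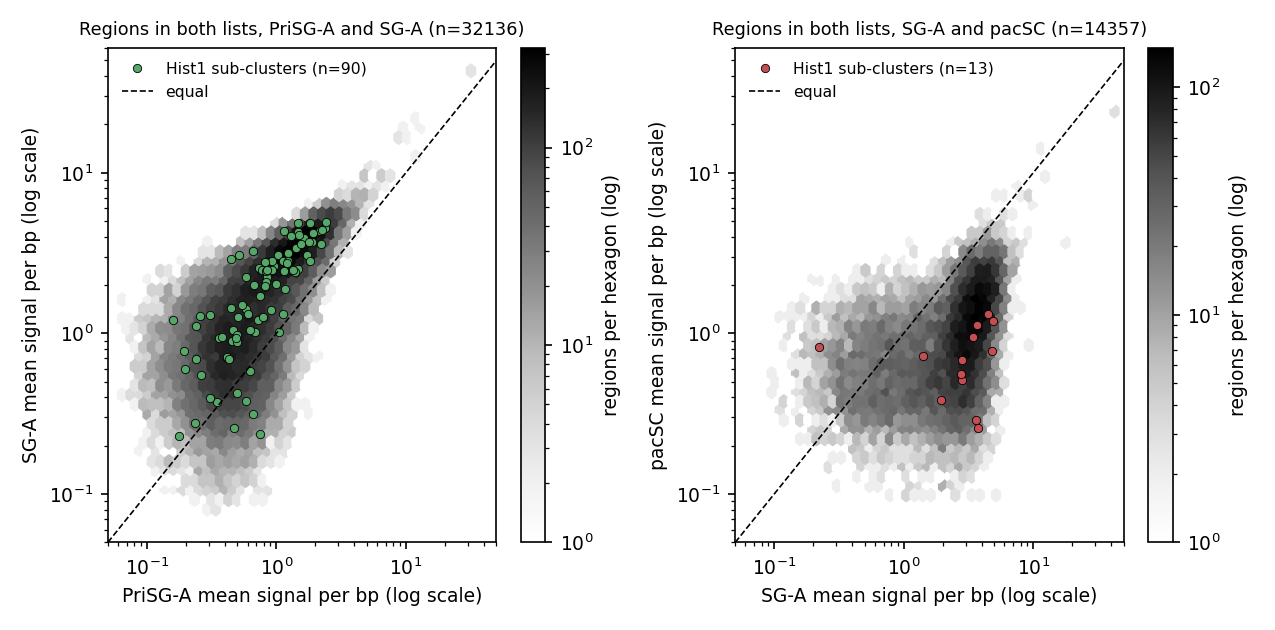
Signal value per bp of joined regions in consecutive lists, on log axes. Grey hexagons count all regions in both lists, coloured points are those of the Hist1 sub-clusters and the dashed line marks equal values. On the left 83 of 90 points lie above the line. On the right 12 of 13 lie below it.

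The regions of highest signal value in sub-cluster 1 were as follows. At 21923060 to 21926622 SG-A had 1 region of 3563 bp with a signal per bp of 4.27, PriSG-A had 2 regions with 2464 bp and 1.46, and neither pacSC nor rST had any. At 21901058 to 21904643 SG-A had 3586 bp at 3.94, PriSG-A 2 regions with 2346 bp at 1.63, and the later stages none. At 21807267 to 21810605 SG-A had 3339 bp at 3.60, PriSG-A 3 regions with 2295 bp at 1.54, and the later stages none. These 3 were the widest and were unlisted after the spermatogonia. The first 2 are those by which the window was chosen, so their absence from pacSC was fixed by that choice.

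The other two lay near the high end of sub-cluster 1, within 10 kb of each other. That at 22133936 to 22135984 was listed at all 4 stages, with a signal per bp of 2.42 over 1658 bp in PriSG-A, 4.92 over 2049 bp in SG-A, 1.198 over 787 bp in pacSC and 0.325 over 267 bp in rST. This region had the highest SG-A signal per bp of both sub-clusters. Its neighbour at 22126681 to 22128797 had 2.25 over 1605 bp in PriSG-A and 4.42 over 2117 bp in SG-A, and was in neither later list. The pair had similar values in the spermatogonia and differed afterwards.

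Within the regions at 21901058 and 21923060, a PriSG-A region at 21901438 to 21902783 and another at 21924897 to 21926242 had the same width, 1346 bp, signal values of 2629 and 2628, and the same −log10 q of 5.55, a likeness searched for after the values were seen. Of PriSG-A regions of 500 bp or more, 0.246% had a partner of equal width and of signal value within 1% on the same chromosome within 1 Mb. Regions under 500 bp were not searched. An SG-A pair of that kind, at 21895042 to 21895140 and 21932540 to 21932638, was picked after its values were seen. Each had 99 bp, a signal value of 53.86 and a −log10 q of 2.35. The sources used here do not say how the authors treated reads that match several copies, so the separate values of the regions in such pairs are uncertain.

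In sub-cluster 2 the region of highest SG-A signal value, 23851864 to 23854798, was again one listed at all 4 stages. Its signal per bp was 1.81 over 2391 bp in PriSG-A, 4.84 over 2935 bp in SG-A, 0.778 over 1243 bp in 2 pacSC regions and 0.376 over 501 bp in rST. The next 4 were in neither pacSC nor rST. The region at 23836852 to 23839332 had 1.29 over 1896 bp in PriSG-A and 4.02 over 2481 bp in SG-A, and that at 23774975 to 23777325 had 2.202 over 1581 bp and 3.62 over 2351 bp. The region at 23830537 to 23832152 had 1.48 over 1546 bp and 4.84 over 1616 bp, and that at 23634798 to 23637266 had 1.23 over 1537 bp and 3.16 over 2469 bp. High signal in SG-A thus came with both outcomes in pacSC. One of the 2 regions at 4.84 was listed there and the other was not.

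Few regions of the sub-clusters were listed in pacSC. Of the SG-A regions, 13 of 185 were listed again, or 7.03% (4.15 to 11.7), against 16.9% of the whole list. The share was 7.06% in sub-cluster 1 (6 of 85) and 7 of 100 in sub-cluster 2. From PriSG-A, 12 of 131 regions, or 9.16% (5.32 to 15.3), were listed in pacSC, against 25.6% of the whole list. Since narrow regions were less often listed again than wide ones, the shares were also taken by width and by −log10 q.

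**Figure D4:**
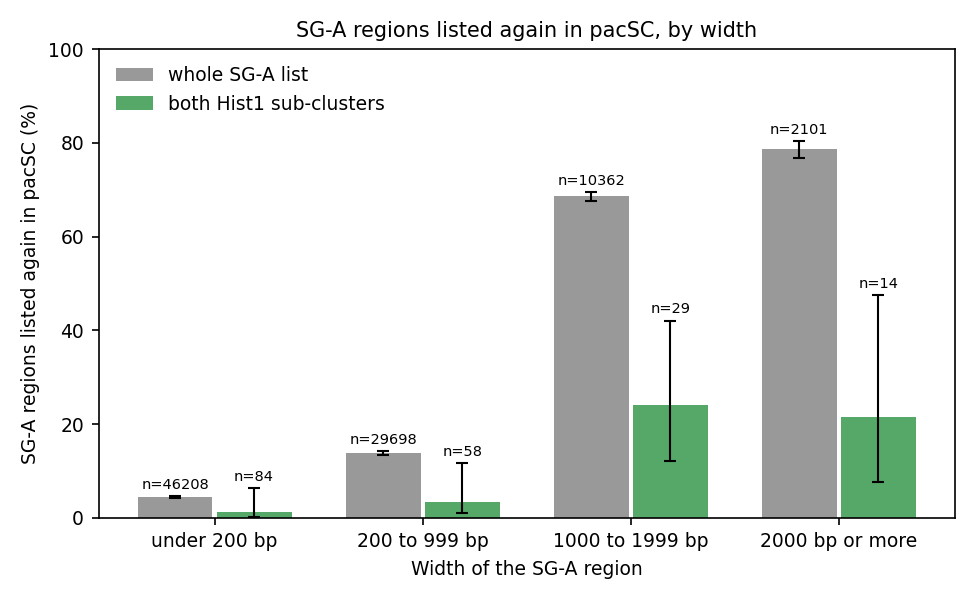
Share of SG-A regions that pacSC lists again, by region width, for the whole list (grey) and both Hist1 sub-clusters (green). Error bars are 95% Wilson intervals and n is the number of SG-A regions. In the sub-clusters 7 of 29 regions of 1000 bp to under 2000 bp and 3 of 14 of 2000 bp or more were listed again, against 68.6% and 78.6% of the whole list.

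Wide and strong regions, which were mostly kept elsewhere, were mostly not kept here. Of the 43 wide SG-A regions 10 were listed again, or 23.3% (13.1 to 37.7), against 70.3% of wide regions in the whole list. Of the 57 with a −log10 q of at least 5 it was 11, or 19.3% (11.1 to 31.3), against 64.3%. Of the 15 with a −log10 q of at least 10 it was 6, or 40.0% (19.8 to 64.3), against 95.5%. Among the 1000 strongest SG-A regions by signal value, 7 were in the sub-clusters and 2 of these were in pacSC, whereas 937 of the other 993 (94.4%) were. As the window was chosen for regions missing from pacSC, these differences describe it and are no test. The 2 regions that set that choice are among the 43, the 57, the 15 and the 7, so their absence from pacSC was fixed beforehand.

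Other places also had wide SG-A regions without a pacSC counterpart. Bins of 100 kb with at least 4 wide SG-A regions numbered 6 in the sub-clusters and 447 elsewhere. The share of wide regions listed again in pacSC ran from 14.3% to 60% over the 6 bins, with a median of 19.1%, and from 0 to 100% over the others, with a median of 66.7%. Of the others, 32 were at or below 19.1%. The bin with the highest share in the sub-clusters was 22000001 to 22100000, where 3 of 5 wide regions were listed again.

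The 19 pacSC regions of the sub-clusters all overlapped an SG-A region, against 54.2% of the whole pacSC list, and they fell on 13 different ones. They covered a median of 21.1% of the width of their SG-A region, from 4.24% to 87.5%. Of the 13 SG-A regions, 10 had their summit within a pacSC region. The width and summit shares were not computed over the whole list. Per joined region, the signal per bp was lower in pacSC in 12 of 13, with a median of 0.240 times the SG-A value, against 0.399 times over the whole series (n = 14357, of which 14.2% were higher in pacSC). Listed length was a median of 0.325 times, against 0.523. Among regions with 1000 bp or more of SG-A length (n = 10), the median for signal per bp was 0.219 times, against 0.333. For length it was 0.340 times, against 0.463. Because scaling between lists is unknown, the ratios are read only beside those of the whole series.

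The exception, named after its values were seen, was the narrow region at 21953607 to 21953755, which had 0.223 over 96 bp in SG-A and 0.819 over 137 bp in pacSC, with none in PriSG-A or rST. The strongest pacSC region of the sub-clusters, at 21878868 to 21879734, had 867 bp and a signal per bp of 1.33. It lay in the SG-A region at 21878002 to 21880030 (2029 bp, 4.50). The pacSC region at 22072892 to 22073603, also picked after its values were seen, had 712 bp at 0.757 and covered 63.6% of an SG-A region of modest strength (1119 bp, 1.41).

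In sub-cluster 2 several SG-A regions held only short or weak pacSC regions, again picked after their values were seen. The SG-A region at 23537195 to 23539034 (1840 bp, 3.42) held 3 pacSC regions of 78, 142 and 116 bp, and that at 23622169 to 23624072 (1904 bp, 2.82) held 2 of 129 and 185 bp. At 23665141 to 23666896 and at 23789326 to 23790779, SG-A had signals per bp of 3.73 and 3.62, and pacSC had 0.259 and 0.289. The median ratio of pacSC to SG-A signal per bp was 0.182 in sub-cluster 2 (7 regions) and 0.302 in sub-cluster 1 (6 regions). No test of that difference was made.

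In rST 4 regions were left in the sub-clusters, each of which lay on a region of the other 3 lists. Of the whole rST list, 88.3% lay on a pacSC region and 74.4% on an SG-A region. The share that lay on all 3 other lists was not counted. From pacSC, 4 of 19 regions were listed again, or 21.1% (8.51 to 43.3), against 14.3% of the whole list, a difference within the interval. From SG-A it was 4 of 185, or 2.16% (0.844 to 5.43), against 4.09%. Of the 43 wide SG-A regions 4 were in rST, or 9.30% (3.68 to 21.6), against 22.3% of wide regions in the whole list. Of the 57 with a −log10 q of at least 5 it was 4, or 7.02% (2.76 to 16.7), against 19.4%. These shares also describe the chosen window and are no test. Besides the regions at 22133936 and 23851864 described above, the joined regions listed in rST were at 21878002 to 21880030 and at 22036116 to 22037733. The first had signals per bp of 2.39, 4.50, 1.33 and 0.490 in PriSG-A, SG-A, pacSC and rST, over 1368, 2029, 867 and 102 bp. The second had 1.87, 3.69, 1.14 and 0.552, over 1247, 1618, 610 and 117 bp. In all 4, both length and signal per bp were highest in SG-A and lowest in rST. Step by step, signal per bp mostly went the same way at large. Over the whole series 84.5% of shared regions were higher per bp in SG-A than in PriSG-A. Of those shared by the next lists, 14.2% were higher in pacSC than in SG-A and 11.9% higher in rST than in pacSC. These shares come from different sets of regions, and the joint order over the 4 lists was not counted. The 4 regions ranked among the 20 regions of highest SG-A signal value in the sub-clusters, at ranks 2, 5, 8 and 19.

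The spacer had fewer regions in SG-A (33) than in PriSG-A (43), unlike the sub-clusters, with 6 in pacSC and 1 in rST; the low flank went from 3 to 2. Of the 53 joined regions of the spacer 21 (39.62%) were in PriSG-A alone and 9 (16.98%) in SG-A alone. In the sub-clusters these were 2 (1.099%) and 89 (48.9%) of 182. Over the whole series the shares were 13.01% and 44.5%. Between 22500001 and 23300000 SG-A had a single region. The spacer also held the 4 joined regions of the window that were in pacSC and in neither spermatogonial list. One of them, at 22439428 to 22439722, was in rST too, with a signal per bp of 0.918 in pacSC and 0.558 in rST.

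Toward sub-cluster 2 the spacer held the region of highest signal per bp of the window, at 23460376 to 23461540, singled out after its value was seen. It had 2.65 over 1139 bp in PriSG-A, 5.15 over 1165 bp in SG-A and 1.52 over 657 bp in pacSC, and was not in rST. Its pacSC −log10 q of 5.18 was the highest of the window, above each of the 19 in the sub-clusters.

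Just inside both edges of the window the regions were sparse, and their density beyond the edges was not examined. Whether the window holds H2bc1 and H2ac1 was not determined. At the low edge, the region just outside (21597686 to 21598595, signal per bp 3.09 in SG-A) was in both spermatogonial lists and pacSC. The region just inside (21622494 to 21623295) was at all 4 stages, with 1.40, 2.90, 1.61 and 0.424 in PriSG-A, SG-A, pacSC and rST. At the high edge the last SG-A region inside was a weak one of 141 bp at 23958384 to 23958524. Just outside, a region at 24025299 to 24026721 in SG-A (1423 bp, 1.45) was wider in pacSC (1523 bp, 1.15). It overlapped 3 PriSG-A regions (663, 100 and 259 bp, at 0.545, 0.566 and 0.345) and 1 in rST (234 bp, 0.248), and 2 further pacSC regions lay within 3 kb of it. That region, wide in pacSC, stood in contrast to the sub-clusters, in which no pacSC region was wide.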

How the data were processed

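The 4 deposited ATAC-seq peak lists were used, 1 per stage for all its libraries; 8 Hi-C and 12 ChIP-seq and input samples were not used. The PriSG-A list was assigned by its labels and by exclusion, since its deposited name is garbled. Bowtie2 2.2.5, Bowtie and SAMtools stand in the submitters' processing notes with no role. The sources used here do not state the peak caller, how libraries were pooled or any Tn5 shift. The deposited signal value is an area: the deposited score equalled 1000 times it divided by width, capped at 1000, in 100% of peaks within 1. The deposited −log10 q was used as a threshold and printed unchanged. Those notes name mm10. On 10 of 21 chromosomes peaks ran past the last GRCm38 gene, which alone does not settle the assembly. Positions are given as deposited, 1-based, and no gene was assigned.

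Regions were counted as listed again at an overlap of at least 1 bp (Python 3.11.15, pandas 2.3.3, NumPy 2.4.6), joined across lists where they overlapped, and placed by midpoint. Shares have 95% Wilson intervals (SciPy 1.17.1). The overlap count was tested on simulated regions of equal width, which included no nested regions and no regions with several partners. Regions named are the 5 of highest SG-A signal value per sub-cluster, pacSC regions absent from SG-A in the sub-clusters (there were none), all listed in rST, and those at the window's edges; others are said to be picked later. The window, its members and the comparisons were chosen with earlier results of these data known.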

Additional observations from a re-analysis of the deposited data

How the results depend on the processing

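Of 33 alternative values, 13 stayed within the interval of the value reported (counts within 1.5 times) and 20 moved; stricter and shorter lists hold fewer regions by construction, and otherwise the cause was not tested. With a −log10 q of at least 5 PriSG-A had 18 sub-cluster regions, SG-A 57, pacSC 0 and rST 0, with a median signal per bp of 1.89 and 2.78 in the first 2, and 100% of PriSG-A regions were listed again in SG-A (whole list 99.2%) and 0% of SG-A regions in pacSC (18.5%); pacSC and rST gave no other value. With a reciprocal overlap of 50% the shares listed again were 36.6% in SG-A (whole list 32.2%), 1.08% in pacSC (6.65%) and 5.26% in rST (5.45%). With each pair of lists cut to equal length they were 93.1% (66.5%), 13.95% (37.0%) and 100% (3 regions; 44.8%), and with all 4 lists cut to the shortest the sub-clusters held 24, 28, 3 and 4 regions. Narrowed by 50 kb at each end, the sub-clusters held 12 pacSC regions. Summed signal over summed width gave 1.26 in PriSG-A and 2.60 in SG-A. In these 4 settings fewer SG-A regions of the sub-clusters than of the whole list were found in pacSC. The step from pacSC to rST gave both orders. At a −log10 q of at least 5 no pacSC region was left in the sub-clusters, so the 0% was fixed in advance. The window was chosen for regions missing from pacSC, so these values describe it and are no test. No paired analysis was possible because a stage's libraries share 1 list, so no replicate could be left out either.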
